A study of Rattus norvegicus with 64 samples.

Results

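A set of 21 Ensembl gene IDs in the nucleus accumbens (ACB) of rats had lower mean read counts in males after early-life intake of the low-calorie sweetener acesulfame potassium (ACE-K) and higher mean read counts in ACE-K females. The 21 IDs were among 32623 in the ACB count table, and among 1940 whose mean CPM (counts scaled to a library total of 1000000 on gene IDs) over the 16 control rats was at least 30 and under 500. They were chosen by 2 values of the ACB itself, the log2 ratio of mean CPM in ACE-K over control rats, which had to be -0.4 or lower in males (rats C91 to C106) and 0.4 or higher in females (rats C107 to C122). Both ACB differences are therefore given as descriptions, with no test. The dorsal hippocampus (HPCd) of the same rats was not used to choose them, and ACE-K and CTL rats are compared by a test in that region only.

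RNA was sequenced from HPCd and ACB tissue punches of 32 individually housed Sprague Dawley rats, with 1 rat per library and 8 rats in each of 4 groups. ACE-K males and ACE-K females received ACE-K daily at about 15 mg/kg through a sipper tube from the juvenile period, and CTL males and CTL females received water the same way, until brains were collected at postnatal day (PN) 80. All 4 groups had chow and water and the same anesthesia (ketamine, xylazine and acepromazine) before collection, and estrus phase was not tracked. Punches are mixed tissue, so that fewer cells of a type and less RNA per cell cannot be told apart.

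Total counts on gene IDs were between 255545 and 416869 per rat in the ACB and between 14304052 and 28292936 in the HPCd, a 62.0-fold difference of the medians. The ACB totals are far below the reads per sample that the labels state, for a reason not given in the sources used here, so that levels in the ACB relative to the HPCd also depend on how each table was counted. A single ACB count was worth about 3.02 CPM at the median total, and the 21 IDs had between 1 and 98 ACB counts per rat, with a median of 18. The rats that stood apart in the ACB for these IDs were C101 (CTL male), C92 and C106 (both ACE-K males). C106 also had the largest ACB total and the highest share of its counts on the 10 most counted IDs (49.0%), whereas C92 had the lowest share (37.3%). The number of IDs, the male ratios, the sex ratios and the correlations are given with and without them. Pairs of rats of a group differed by a chi-square of at least 1.58 per degree of freedom in either region, with IDs under 50 counts per pair left out, and each rat was counted as 1 replicate.

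The ACB is the ventral part of the striatum. It is built mainly of inhibitory projection neurons, which receive dopamine from the midbrain and glutamatergic input from the cortex, amygdala and hippocampus, and it is known for its part in reward and in appetitive and consummatory behavior. The HPCd is rich in glutamatergic pyramidal and granule neurons and is known for its part in spatial and contextual memory. The count tables give IDs without gene names, and none of the IDs could be paired with a name here. The members are therefore given by ID, with no role, and marker genes of either region could not be looked up. HTSeq's strand setting was not given in the sources used here, so that reads of a gene and of an overlapping gene on the other strand cannot be told apart.

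Of the 1940 IDs in the CPM window, 144 had a log2 ratio of -0.4 or lower in males and 83 had one of 0.4 or higher in females. The 21 IDs were 14.6% of the former and 25.3% of the latter, and 1.08% of the window. The opposite combination, with males at 0.4 or higher and females at -0.4 or lower, held for 10 IDs, which were 17.2% and 10.3% of the IDs past each limit. Only 1 ID was lower in both sexes and 0 were higher in both. The median log2 ratio was -0.51 in males and 0.48 in females for the 21 IDs, against -0.02 and -0.03 over the window.

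**Figure D1:**
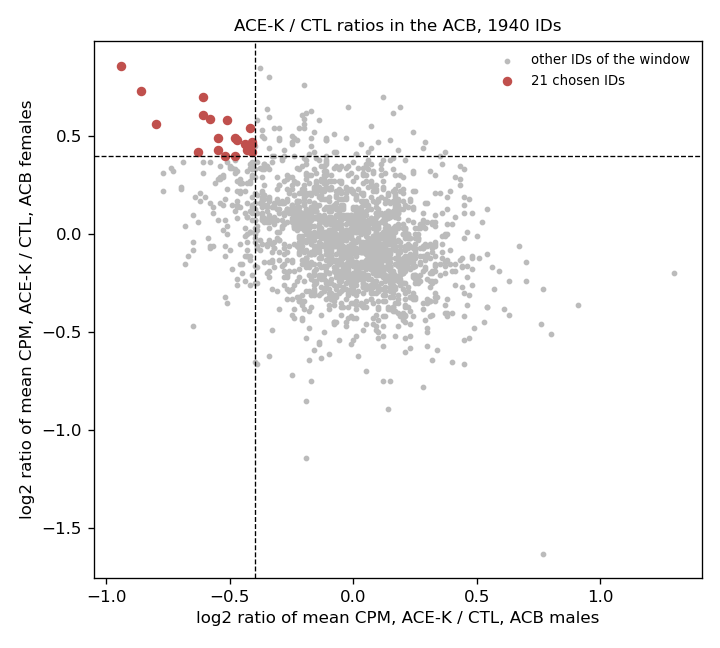
Log2 ratio of mean CPM in ACE-K over CTL rats in ACB males (x axis) and ACB females (y axis) for each of 1940 IDs, with dashed lines at the limits of -0.4 and 0.4. The 21 chosen IDs (red) fill the upper left corner, and several gray points lie just outside its edges.

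The limits cut through a continuous cloud. Just inside were ENSRNOG00000005108 (log2 ratio -0.483 in males and 0.403 in females), ENSRNOG00000006557 (-0.522 and 0.404) and ENSRNOG00000020423 (-0.412 and 0.475). Just outside were ENSRNOG00000025037 (-0.397 and 0.448), ENSRNOG00000061270 (-0.393 and 0.577) and ENSRNOG00000007989 (-0.484 and 0.377).

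Membership of 6 IDs did not depend on any single rat: ENSRNOG00000014761, ENSRNOG00000028650, ENSRNOG00000006979, ENSRNOG00000019435, ENSRNOG00000018712 and ENSRNOG00000011310 stayed within the rule whichever of the 32 rats was left out. For the other 15 IDs, between 4 and 13 of the rats ended membership when left out, with ENSRNOG00000000582 the most dependent (13) and ENSRNOG00000013981 next (11). Leaving out single rats reuses the values that chose the IDs. Without C92, C101 and C106 together, only ENSRNOG00000014761 met the rule.

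ENSRNOG00000014761 had the largest ratios in both sexes. Its CPM (lowest, median and highest rat) was 22.4, 56.0 and 113.6 in CTL males and 9.77, 24.5 and 53.2 in ACE-K males. In females it was 5.80, 37.1 and 61.9 in CTL rats and 44.4, 59.0 and 104.1 in ACE-K rats. All 8 ACE-K males were below the CTL male median and all 8 ACE-K females above the CTL female median, but the ranges overlapped in both sexes. The means were 60.3 ± 29.98 against 31.4 ± 17.4 CPM in males (CTL against ACE-K, SD, n = 8 each) and 36.2 ± 15.6 against 65.5 ± 19.9 CPM in females, which gave log2 ratios of -0.94 and 0.86.

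ENSRNOG00000028650 followed with log2 ratios of -0.86 and 0.73. Its CPM was 39.6, 73.0 and 150 in CTL males and 12.0, 36.3 and 84.0 in ACE-K males. It was 17.7, 52.5 and 57.6 in CTL females and 47.6, 82.3 and 97.8 in ACE-K females. In females, 6 of 8 ACE-K rats lay above the highest CTL rat, and in males 4 of 8 ACE-K rats lay below the lowest CTL rat.

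ENSRNOG00000011310 had log2 ratios of -0.80 and 0.56. Its CPM was 21.9, 55.0 and 100.7 in CTL males and 3.26, 29.8 and 64.4 in ACE-K males, where the lowest value was a single count in C92. It was 14.5, 28.3 and 68.5 in CTL females and 24.5, 54.1 and 79.7 in ACE-K females. Here the groups overlapped widely, with 2 of 8 ACE-K females above the highest CTL female.

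ENSRNOG00000006979 had log2 ratios of -0.61 and 0.70. Its CPM was 65.8, 88.0 and 196 in CTL males and 26.1, 78.8 and 98.01 in ACE-K males, so that the male medians lay closer than the means. In females it was 34.8, 60.02 and 74.7 in CTL rats and 55.1, 97.9 and 123 in ACE-K rats, and 6 of 8 ACE-K females exceeded every CTL female.

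ENSRNOG00000018712 had log2 ratios of -0.58 and 0.59. Its CPM was 75.5, 105.02 and 204 in CTL males and 16.8, 72.8 and 111.8 in ACE-K males, and 58.6, 76.7 and 107.7 in CTL females and 89.3, 125 and 155 in ACE-K females. In females 6 of 8 ACE-K rats exceeded every CTL rat, and in males 5 of 8 ACE-K rats were below every CTL rat.

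ENSRNOG00000019435 had log2 ratios of -0.61 and 0.61. Its CPM was 13.2, 57.8 and 111.03 in CTL males and 16.05, 34.9 and 57.4 in ACE-K males, and 13.7, 40.2 and 49.6 in CTL females and 27.6, 60.2 and 69.4 in ACE-K females. The lowest CTL male was below every ACE-K male, whereas 6 of 8 ACE-K females exceeded every CTL female.

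The remaining 15 IDs had log2 ratios between -0.63 and -0.41 in males and between 0.40 and 0.58 in females. ENSRNOG00000006410 (-0.63 and 0.42) stood out among them in males, with 7 of 8 ACE-K males (median 69.9 CPM) below the lowest CTL male (82.5 CPM). ENSRNOG00000020339 had ratios of -0.51 and 0.58, ENSRNOG00000008810 of -0.55 and 0.49, ENSRNOG00000018366 of -0.48 and 0.49, ENSRNOG00000021118 of -0.47 and 0.48, and ENSRNOG00000058938 of -0.42 and 0.54. ENSRNOG00000009313 had ratios of -0.55 and 0.43, ENSRNOG00000008709 of -0.44 and 0.46, ENSRNOG00000016589 of -0.43 and 0.45, ENSRNOG00000000582 of -0.43 and 0.43, ENSRNOG00000008919 of -0.41 and 0.46, and ENSRNOG00000013981 of -0.41 and 0.42.

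In group medians, all 21 IDs were lower in ACE-K than in CTL males and all 21 were higher in ACE-K than in CTL females. The medians come from the same values as the means that chose the IDs, so this direction was largely set by the rule. When the rule was applied to median CPM, 7 of the 21 still met it. For 0 of the 21 IDs did the 8 ACE-K rats separate fully from the 8 CTL rats, in females (0.0515% of window IDs had every ACE-K above every CTL female) or in males (0% of window IDs had every ACE-K below every CTL male).

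**Figure D2:**
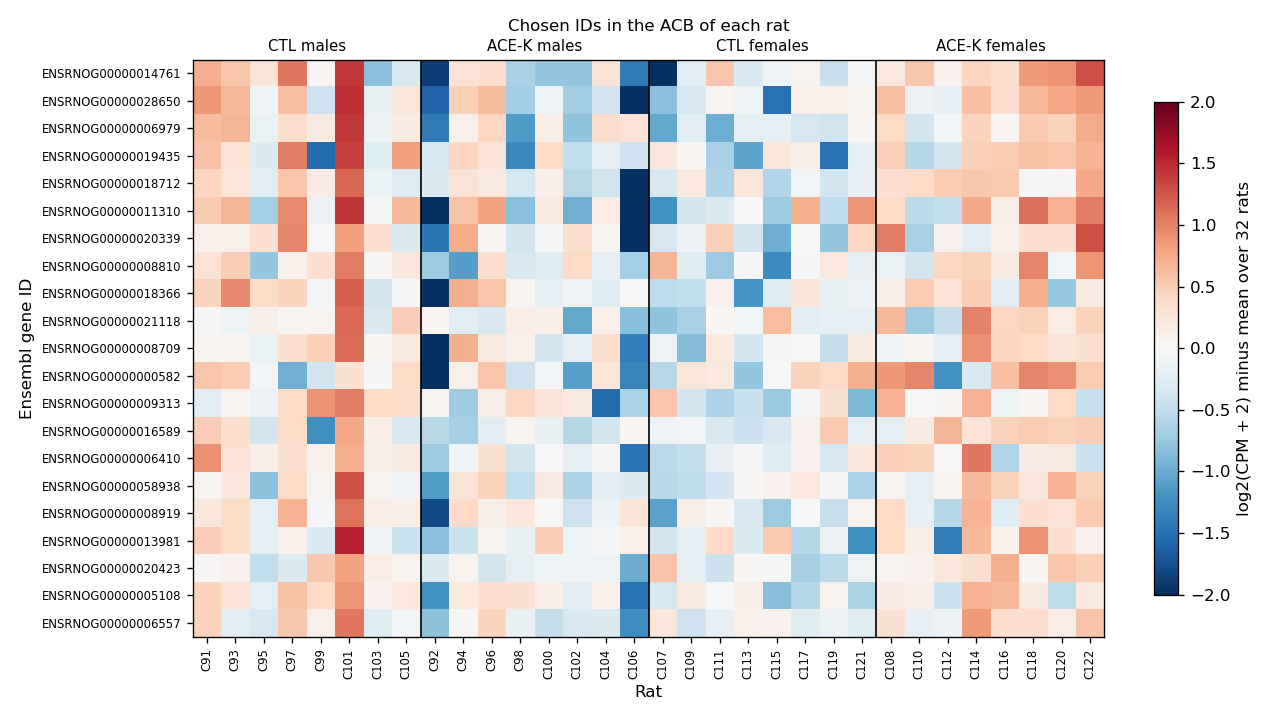
Log2(CPM + 2) of each of the 21 chosen IDs (one line per ID, ordered by the smaller of its 2 absolute log2 ratios) in the ACB of each of 32 rats, minus its mean over all rats; values beyond the ends of the color scale are drawn at the ends. C101 is red and C92 and C106 are blue down most of the IDs, and the ACE-K females are redder than the CTL females.

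Summed over the 21 IDs, CPM was 1056, 1401 and 2654 (lowest, median and highest rat) in CTL males and 576, 1084 and 1467 in ACE-K males. It was 945, 1059 and 1170 in CTL females and 1123, 1532 and 1875 in ACE-K females. The female groups met only at their edges, since 7 of 8 ACE-K females were above the highest CTL female. In males, 4 of 8 ACE-K rats were below the lowest CTL male and the others lay within the CTL range. Each ID was chosen for its differences in these same rats, so the rule itself favored such a separation of the sums. The group means were 1531 ± 506 and 1053 ± 306 CPM in CTL and ACE-K males and 1065 ± 73.2 and 1521 ± 253 CPM in CTL and ACE-K females (SD, n = 8 each), with log2 ratios of -0.54 and 0.52.

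**Figure D3:**
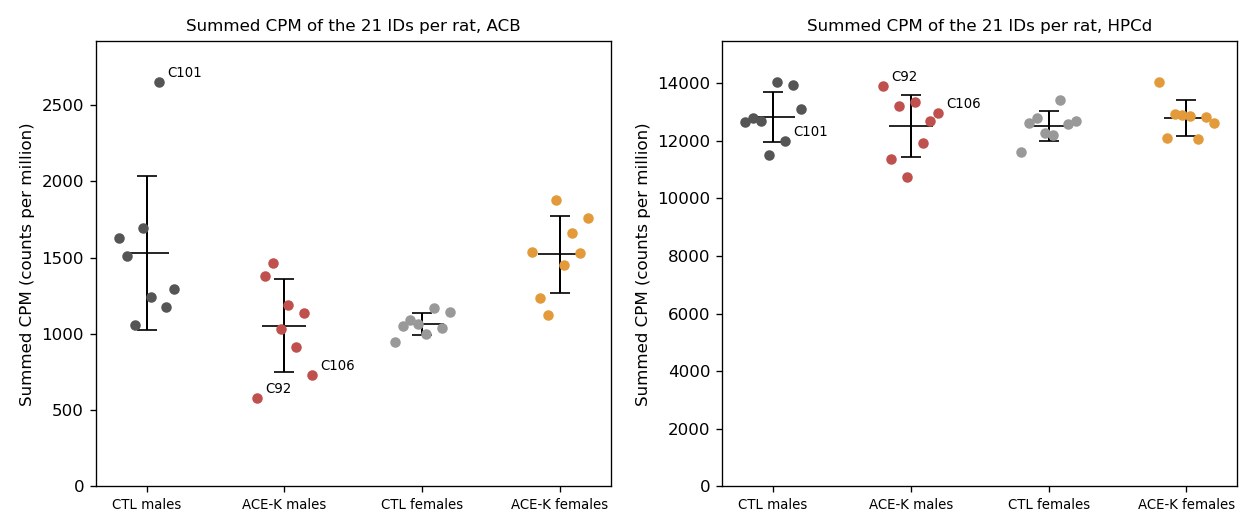
Summed CPM of the 21 chosen IDs in each rat (points) in the ACB (left) and the HPCd (right), with the mean and SD of each group of 8 rats (black). In the ACB, C101 is highest at 2654 CPM and C92 and C106 are lowest at 576 and 729 CPM. In the HPCd, the 4 groups overlap, C92 is the highest ACE-K male and C101 lies in the lower part of the CTL males.

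A few males carried a large part of the male difference. C101 had the highest CPM of all 32 rats for 18 of the 21 IDs, at 1028 counts on them, and it also had the largest ACB total of the CTL rats (387284). C92 was lowest for 7 IDs and C106 for another 7, at 177 and 304 counts. In females the extremes were less concentrated, with 3 ACE-K rats (C114, C118 and C122) highest for 1 ID each.

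Without C106, 17 IDs met the rule, of which 15 were among the 21, and the median log2 ratio of the 21 in males was -0.47. The 6 IDs lost were ENSRNOG00000000582, ENSRNOG00000005108, ENSRNOG00000008709, ENSRNOG00000020339, ENSRNOG00000020423 and ENSRNOG00000021118, with log2 ratios of -0.39 to -0.32 in males. Without C101, 9 IDs met the rule, all among the 21, and the median was -0.40. Without C92, 14 met it, of which 12 were among the 21, and the median was -0.46. Without C92, C101 and C106 together, 1 ID met it (ENSRNOG00000014761, -0.48 in males), and the median was -0.22 in males. Of the 21 IDs, 20 still had a ratio below 0 in these 13 males, the exception being ENSRNOG00000008709 (0.03). Among the 1919 window IDs outside the set, 48.9% were below 0 in the same males. The values of these males also chose the 21 IDs, so the kept direction was favored by the rule. The log2 ratio of the summed CPM in males was -0.48 without C106, -0.38 without C101 and -0.21 without all 3 rats. In females, leaving out C114 left 13 IDs, all among the 21 (the median over all 21 was then 0.48), and leaving out any single female left the log2 ratio of the summed CPM between 0.47 and 0.57.

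Among CTL rats, which enter the rule as the denominator in each sex, mean CPM was lower in CTL females than in CTL males for 20 of 21 IDs, with a median log2 ratio of -0.52, against 47.8% of window IDs lower in CTL females. The exception was ENSRNOG00000000582 (0.05), and the lowest ratio was that of ENSRNOG00000006979 (-0.87). Without C101, 20 of 21 were still lower, at a median of -0.43 (44.4% of window IDs). Among ACE-K rats the order was turned, with all 21 IDs higher in females at a median of 0.55, against 50.7% of window IDs higher in ACE-K females. The median was 0.48 without C106 and 0.39 without C92 and C106, with all 21 still higher in females. With all rats, the lowest ratio there was 0.24 (ENSRNOG00000018366) and the highest was 1.06 (ENSRNOG00000014761). The mean summed CPM of CTL males was 1371 without C101, and that of ACE-K males was 1186 without C92 and C106, beside 1065 in CTL females and 1521 in ACE-K females. The rule used all of these values, and the sex differences were not tested.

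With all rats, the 21 IDs tended to be high or low in the same rats of a group, most of all in males. This did not hold in CTL females. On the log2(CPM + 2) scale, the mean correlation over the 210 pairs of IDs was 0.571 in CTL males, 0.396 in ACE-K males and 0.258 in ACE-K females (8 rats each), beside 0.0148, 0.0627 and 0.0147 over pairs of window IDs. In CTL females it was 0.00174, with 47.1% of pairs above 0, and the window was at 0.0361. The value in CTL males rested partly on C101 and was 0.279 without it. In ACE-K males it was 0.427 without C106 and 0.228 without both C92 and C106. Without C101, or without C92 and C106, the male values were thus close to that of ACE-K females. The points share library, depth and the counts of 1 column, and no p is given. The rule also used these ACB values, and a high C101 or a low C92 or C106 favored membership. Pairs of window IDs, which were not chosen this way, are thus not a like background.

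Further IDs of the window followed the same rats. When each ID was set to its deviation from its group mean, 63 of 1919 IDs outside the set (3.28%) had a correlation of at least 0.6 with the mean of the 21 over the 32 rats, led by ENSRNOG00000022248 (0.87) and ENSRNOG00000014302 (0.86). Group means were removed, but C101, C92 and C106 weigh both on these deviations and on the male ratios. Of these 63, 58 had a log2 ratio below 0 in males and 57 one above 0 in females, with medians of -0.34 and 0.26, while among all 1919 the shares were 52.5% and 44.0%. On the other side, 36 IDs had a correlation of -0.6 or lower, down to -0.80 for ENSRNOG00000008841, and 31 of these had a ratio above 0 in males and 31 one below 0 in females. Without C92, C101 and C106, 25 IDs were at 0.6 or above, of which 21 were among the 63, and 29 were at -0.6 or below. The male direction of the followers rested on these 3 rats: without them, 32 of the 63 had a male ratio below 0 (48.9% of all 1919 IDs), at a median of 0.00, and 10 of the 36 had one above 0, at a median of -0.07.

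The 10 IDs with the opposite combination ran only partly against the 21. Their correlations with the mean of the 21 ran from -0.62 to 0.21, with a median of -0.31, and only 1 of the 10 was among the 36 IDs at -0.6 or lower. The largest ratios among them were those of ENSRNOG00000013433 (0.77 in males and -1.63 in females) and ENSRNOG00000037299 (0.80 and -0.51).

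Most of the 21 IDs had a larger share of the counts in the HPCd table than in the ACB table. Mean CPM over the 32 rats was lower in the ACB for 19 of 21, with a median log2 ratio of ACB over HPCd of -2.57 and a range of -5.06 (ENSRNOG00000008810) to 1.69 (ENSRNOG00000000582). Among the window IDs with an HPCd count, 45.1% were lower in the ACB, the median log2 ratio was 0.51, and the lower quartile was -2.00. Of the 21, 14 lay at or below that quartile. The 21 IDs had mean ACB CPM over CTL rats of 30.5 to 126, in the low part of the window, and the window IDs were not matched to them on level. ENSRNOG00000018712, for example, had 2432 CPM in the HPCd, with a range of 1963 to 2758 over the 32 rats, against 96.9 CPM in the ACB of CTL rats. The 63 IDs that followed the 21 also leaned this way, with 42 of 63 lower in the ACB and a median log2 ratio of -1.79, whereas 3 of the 36 IDs on the other side were lower in the ACB and their median was 3.66. What tissue or cell type these IDs mark could not be looked up, and its part in the ACB differences was not tested.

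**Figure D4:**
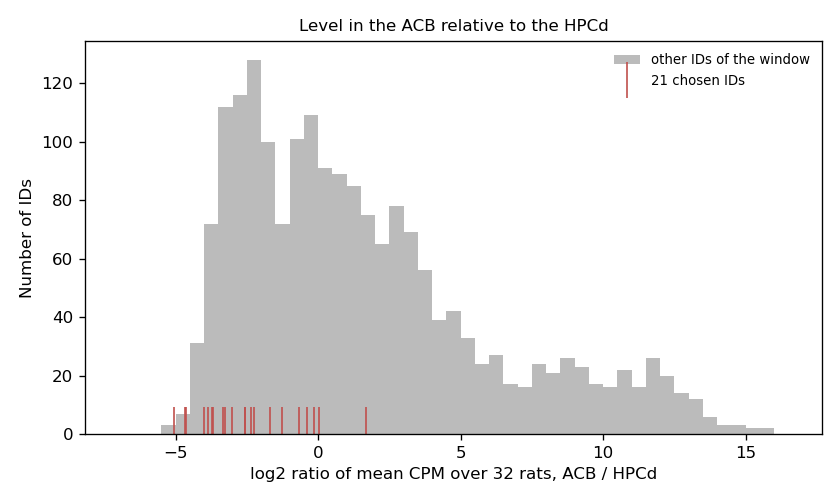
Log2 ratio of mean CPM over 32 rats in the ACB over the HPCd (x axis) for the other IDs of the window (gray histogram, number of IDs) and for the 21 chosen IDs (red ticks). The red ticks lie on the left, at a median of -2.57, where the median of the window is 0.51.

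The HPCd shows whether ACE-K and CTL rats also differed for these IDs in libraries that did not choose them. All 21 passed the filter on low counts there, with a median of 7116 counts per rat. Summed CPM was 11501, 12744 and 14041 (lowest, median and highest) in CTL males and 10742, 12831 and 13898 in ACE-K males. It was 11616, 12597 and 13421 in CTL females and 12045, 12844 and 14053 in ACE-K females. The ranges overlapped in both sexes, and the median of each group lay within the range of the other. The rats that stood apart in the ACB did not keep their order in the HPCd. C92, the lowest in the ACB, had the highest HPCd sum of the ACE-K males (13898 CPM). C101, the highest in the ACB, had 11999 CPM, below the CTL male median, and C106 had 12977 CPM.

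By edgeR's quasi-likelihood test, 0 of the 21 IDs were suggestive DEGs (unadjusted p under 0.05 and a log2 fold change of at least 0.4 in size) in HPCd males (1.33% of all 15704 IDs tested) and 0 in HPCd females (1.34% of 15651). At an unadjusted p under 0.05 alone, 1 of 21 passed in males (5.12% of all) and 0 of 21 in females (4.14% of all), and DESeq2 gave the same counts. The ID in males was ENSRNOG00000020339. Its HPCd CPM was 262, 284 and 310 in CTL males and 259, 267 and 285 in ACE-K males, and its log2 fold change was -0.10 (95% interval -0.18 to -0.02, unadjusted p = 0.0158, adjusted p = 0.963 by edgeR). In females its log2 fold change was 0.01 (-0.09 to 0.11). The smallest unadjusted p in females was 0.0784, for ENSRNOG00000006557 (log2 fold change 0.08, interval -0.01 to 0.16, edgeR).

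The HPCd differences were small but leaned in the ACB directions. Log2 fold changes were below 0 in males for 18 of 21 IDs (49.2% of all IDs tested and 52.5% of the other window IDs) and above 0 in females for 18 of 21 (51.7% and 61.8%). Both held for 17 of 21 (81.0%), against 39.2% of the other window IDs and 30.9% of all IDs tested in both sexes. The medians were -0.05 in males and 0.05 in females, where those of all IDs were 0.00. The HPCd and ACB libraries come from the same rats, and the mean correlation over pairs of the 21 IDs was also above 0 in the HPCd. It was 0.240 in CTL males, 0.356 in ACE-K males, 0.100 in CTL females and 0.130 in ACE-K females. No background of other IDs is given for these values. The 21 IDs are thus not taken as 21 separate observations, and the lean was not tested. In each sex, the 95% intervals of 20 of 21 IDs lay wholly within -0.4 and 0.4, so that a difference of the size required in the ACB was outside them. The exception was ENSRNOG00000005108 (-0.72 to 0.42 in males and -0.11 to 0.43 in females), which ranged from 195 to 1569 CPM over the HPCd libraries.

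**Figure D5:**
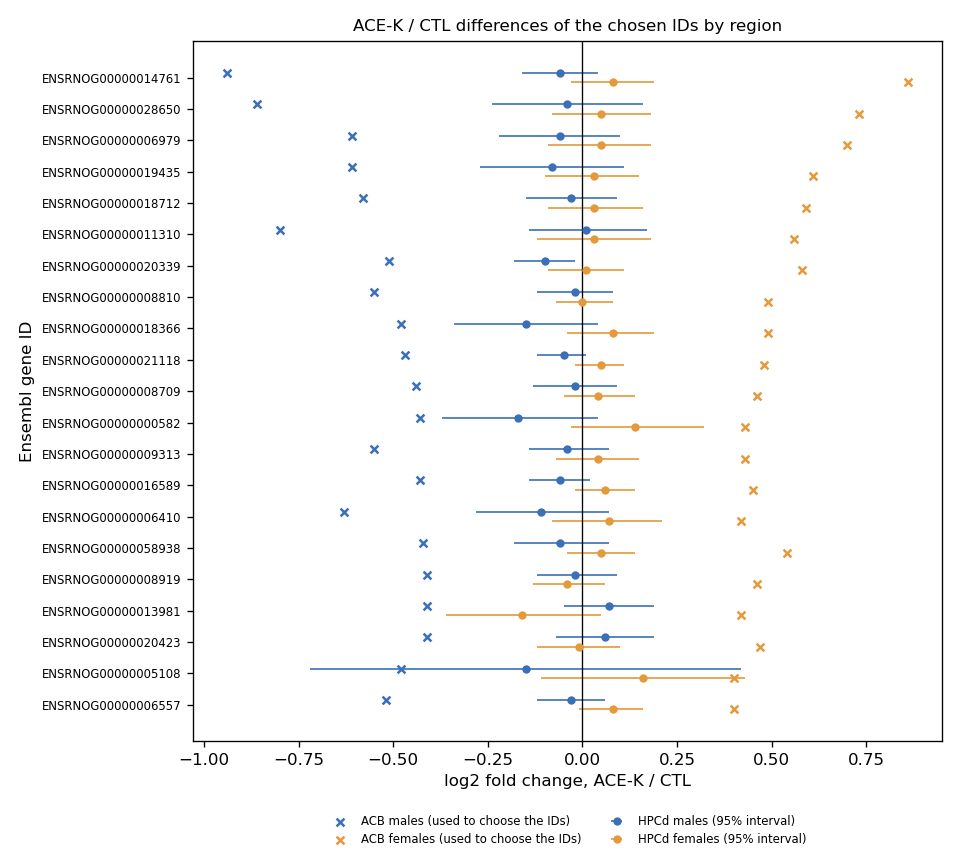
Log2 fold change of ACE-K over CTL rats for each of the 21 chosen IDs in the HPCd (circles with 95% intervals, edgeR) and, for comparison, the ACB log2 ratios that chose them (crosses), in males (blue) and females (orange). The HPCd circles lie close to 0, between -0.17 and 0.16, with most males left of 0 and most females right of it.

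For Treatment × Sex in the HPCd (the ACE-K difference in females minus that in males), 4 of 21 IDs had an unadjusted p under 0.05, against 8.72% of all 16012 IDs tested, and 0 passed an adjusted p of 0.05 by edgeR or by DESeq2. By edgeR they were ENSRNOG00000000582 (log2 difference 0.31, interval 0.05 to 0.58, unadjusted p of 0.0230), ENSRNOG00000016589 (0.12, 0.02 to 0.23, 0.0229), ENSRNOG00000018366 (0.23, 0.00 to 0.45, 0.0455) and ENSRNOG00000021118 (0.10, 0.01 to 0.19, 0.0302), with an adjusted p of 0.488 or higher. All 4 had the direction of the ACB, as did 18 of 21 (51.1% of all IDs and 58.9% of the other window IDs were above 0), and the median was 0.11. The 18 of 21 largely restates the lean above, since 17 of 21 IDs were below 0 in males and above 0 in females. The IDs are not separate observations, and this count was not tested.

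For ENSRNOG00000016589, which had the smallest unadjusted p of the 4, HPCd CPM was 487, 522 and 564 in CTL males and 486, 515 and 537 in ACE-K males, and 487, 515 and 550 in CTL females and 513, 520 and 562 in ACE-K females. The 4 groups overlapped, and the lowest ACE-K female was just below the CTL female median. For ENSRNOG00000018366, the mean was lower in ACE-K males (520 ± 86.5 CPM) than in CTL males (570 ± 52.6, SD, n = 8 each), but the medians were 555 and 550 CPM, and the ACE-K males reached down to 351 CPM. For ENSRNOG00000000582, the least abundant of the 21 in the HPCd, the means were 14.6 ± 2.33 and 13.1 ± 1.67 CPM in CTL and ACE-K males and 13.1 ± 1.37 and 14.2 ± 1.72 CPM in CTL and ACE-K females.

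Among CTL rats, HPCd levels were lower in females than in males for 17 of 21 IDs (53.2% of all IDs), at a median log2 fold change of -0.05, and at an unadjusted p under 0.05, 3 of 21 were lower in females (5.98% of all IDs) and 1 of 21 was higher (5.06%). ENSRNOG00000006410 was lower in CTL females (58.6, 77.3 and 81.7 CPM) than in CTL males (75.1, 87.8 and 104.9 CPM), with a log2 fold change of -0.24 (interval -0.40 to -0.08, unadjusted p = 0.00527, adjusted p = 0.266, edgeR). ENSRNOG00000020339 (-0.13, unadjusted p = 0.00588) and ENSRNOG00000021118 (-0.06, unadjusted p = 0.0479) were also lower in CTL females by edgeR. ENSRNOG00000013981 had the other direction (0.21, unadjusted p = 0.0188), where 1 CTL female reached 152 CPM beside a median of 94.9 CPM. None of the 21 passed an adjusted p of 0.05 for sex by edgeR or DESeq2.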

How the data were processed

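The authors trimmed single-end reads with Trimmomatic, used STAR to align them to Rnor6.0 and HTSeq to count them by gene, and deposited raw counts for each region, with 1 column per rat; versions, the annotation release and the strand setting were not given in the sources used here. In the HPCd table, 5 summary rows that name no gene (20.9% to 24.8% of its reads) were left out. CPM used the sum of each column. All rats were kept here, C106 included. The authors took out 1 ACE-K sample of the ACB as an outlier after principal component analysis. Which rat it was is not given in the sources used here. HPCd tests used edgeR 4.0.16 (R 4.3.3), with TMM normalization, a filter of 5 normalized counts in 3 or more rats, and Benjamini-Hochberg adjustment over all IDs tested; DESeq2 1.42.0 was an alternative. The tests were checked on simulated data. Descriptions used Python 3.11.15 with pandas 2.3.3. All 21 members are named, with the 3 IDs nearest the limits on each side. The members and lists were chosen with earlier results of these data known. Lists of striatal, synaptic and cell type genes, overlap of genes on the other strand, and sequences were not evaluated, since 0 IDs could be paired with names.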

Additional observations from a re-analysis of the deposited data

Results flagged for a closer look

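In groups of 8 rats, the gap between an extreme rat and its nearest neighbor was compared with the range of the group by Dixon's test, for the summed CPM in each region and for each of the 21 IDs in the ACB. Of 92 groups, 11 stood out. Chance flags about 1 in 20 groups, but that rate does not apply to ACB values of IDs that these same values chose, since a high C101 raises the CTL male mean and so favors membership. Rat C101 accounted for 7 of them among ACB CTL males. Its summed CPM was 2654, where the other 7 rats lay between 1056 and 1692. It was also far above the others for ENSRNOG00000006979 (196 CPM, others up to 118.5), ENSRNOG00000008709 (145, others up to 92.4), ENSRNOG00000013981 (160, others up to 76.1), ENSRNOG00000018712 (204, others up to 135), ENSRNOG00000021118 (72.3, others up to 45.3) and ENSRNOG00000058938 (181, others up to 96.3). These IDs moved together in this library, so that the 7 are not separate events.

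Among ACB CTL females, a different rat stood out each time, with 71.3 CPM for ENSRNOG00000016589 in C119, 60.9 CPM for ENSRNOG00000020423 in C107 and 49.6 CPM for ENSRNOG00000021118 in C115. In the HPCd, the summed CPM of the ACE-K female C108 was 14053, above the other 7 rats (12045 to 12921).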

How the results depend on the processing

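The number of IDs that met the rule depended on single rats and on its limits. Leaving out each of the 32 rats in turn gave 9 (without C101) to 31 (without C103) IDs, with 13 without C114. Leaving out C92, C101 and C106 together, chosen after seeing the data, gave 1. TMM library sizes gave 14 IDs and DESeq2 size factors 13, all among the 21, while the rule by median CPM gave 16, of which 7 were among the 21, and the rule by mean log2(CPM + 2) gave 24, of which 13 were. Column sums without the 10 most counted IDs, which raise every CPM, gave 62, of which 20 were among the 21. A minimum size of 0.3 gave 71 and one of 0.5 gave 7. With a low limit of 10 CPM, 2.29% of 4706 IDs in the window met the rule, and all 21 were among them. The 231 log2 ratios of the 21 IDs in the ACB were recomputed with other library sizes, medians, log values or without C106. All kept their sign, but the same ACB counts chose the IDs, so the rule largely set this. Some of the ratios became much smaller, such as that of ENSRNOG00000006979 in males (-0.61, but -0.16 by medians). Leaving out C92 or C101 was not among these 231. Without C92, C101 and C106 together, the male ratio of ENSRNOG00000008709 was 0.03. The log2 ratio of the summed CPM lay within -0.62 and -0.38 for males and within 0.47 and 0.57 for females when single rats were left out. The mean correlation of the IDs was 0.279 in CTL males without C101 and 0.0677 in CTL females with TMM library sizes. In the HPCd, counts of members stayed within 1.5 times under every alternative run, DESeq2 and C106 left out included, with 3 to 4 of 21 for Treatment × Sex and for sex. ACB depth limits the values to a median of 18 counts per ID and rat. No paired analysis was possible because ACE-K and CTL rats are different animals and share no numbers.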
